A study of Homo sapiens with 6 samples.

Results

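The genes described here control the passage of cells from G1 into S phase. They were listed by name, and 9 of the 10 listed have a row among the 18118 genes counted in SU-CCS-1 cells. The 9 are the cyclin genes CCND1, CCND3, CCNE1 and CCNE2, the kinase genes CDK4 and CDK6, the inhibitor genes CDKN1A and CDKN1B, and the retinoblastoma gene RB1. CCND2 was not analysed here. All 9 genes passed the filter on low counts and were among the 14571 genes tested.

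SU-CCS-1, an established line of human clear cell sarcoma, has the fusion of EWSR1 to ATF1 (EWSR1::ATF1, EA1), so the fusion gene was present in all cells compared. To ask what the fusion does to transcription, EA1 was knocked down by siRNA (5 pmol, 48 h after transfection), a negative control siRNA served as reference, and RNA was sequenced. The labels list 2 control libraries, 2 libraries with EA1 siRNA 1 and 2 with EA1 siRNA 2, whereas the methods name 1 siRNA against EA1. No label states that replicates came from separate cultures, so the p-values measure the spread between these libraries, which may be technical, and 1 cell line limits the model.

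In G1, D-type cyclins bind CDK4 or CDK6, and the active kinases phosphorylate the retinoblastoma protein. Phosphorylation releases E2F transcription factors, which turn on genes for DNA replication and the E-type cyclins, and cyclin E with CDK2 then completes the phosphorylation. The CIP/KIP inhibitors p21 and p27, the products of CDKN1A and CDKN1B, bind cyclin and CDK complexes and restrain CDK2.

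Counts summed to between 5942808 and 7599305 per library, and 3 counts, the smallest level told from 0 here, corresponded to between 0.395 and 0.505 CPM, which is the count scaled to the library total. That floor covers counting error only. ATF1, whose counts include reads of the fusion, stood at 82.2 and 87.4 normalized CPM in control, at 21.2 and 20.3 for EA1 siRNA 1 and at 21.7 and 22.3 for EA1 siRNA 2. EWSR1, the other fusion partner, whose counts also include such reads, ranged from 195 to 233 CPM over the 6 libraries and was not called. Counts per gene do not separate fusion from native RNA. A loss of native ATF1 RNA therefore cannot be told apart here from a loss of EA1. All 8 melanocytic markers were counted, and SOX10 (786 to 979 CPM) and MITF (636 to 1174 CPM) were high in every library, whereas MLANA stayed at or below 4.27 CPM. The 8 markers together summed to 2750 and 3010 CPM in control and to between 7393 and 11989 CPM after knockdown. PMEL was the largest part of that sum, at 1397 and 1043 CPM in control and 4241 to 7768 CPM after knockdown. SOX10 was not called with either EA1 siRNA. Of 8 markers of immune, endothelial, muscle and fibroblast cells, 3 were counted (CD68, COL1A1 and LUM). These summed to 2.96 and 4.34 CPM in control and to between 8.89 and 23.1 CPM after knockdown. LUM went from 1.80 and 0.771 CPM to between 6.26 and 18.3 CPM, and COL1A1 from 1.65 and 1.93 CPM to between 2.42 and 4.63 CPM. CD68 stood at 0.898 and 0.257 CPM in control and at or below 0.569 CPM after knockdown. Its values overlap and lie near the floor, so no direction is given, and CD68 was not tested. The part of these shifts in the results below was not tested. As these are bulk libraries, fewer cells of a kind and less RNA per cell cannot be told apart.

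Levels below are CPM after TMM normalization, and a positive log2FC stands for a higher level in control than in knockdown. The quasi-likelihood test of edgeR was adjusted by Benjamini-Hochberg over all 14571 genes. A gene was called at an adjusted p under 0.05, and every adjusted p below comes from that test unless DESeq2 is named. With each EA1 siRNA, 5 of the 9 genes were called. CCND1, CCNE2, CDKN1A and RB1 fell after knockdown, and CDKN1B rose. This is 55.6% of the 9 genes, where 40.1% of all genes tested were called with EA1 siRNA 1 and 36.7% with EA1 siRNA 2. For genes higher in control the background was 20.3% and 18.2%, and for genes lower in control it was 19.9% and 18.5%. The median log2FC of the 9 genes was 0.42 for EA1 siRNA 1 and 0.23 for EA1 siRNA 2, against −0.02 and 0.00 over all genes tested. With both EA1 siRNAs averaged, the same 5 genes were called, where 43.5% of all genes were, 22.1% higher and 21.5% lower in control. The libraries of control did not overlap those of EA1 siRNA 1 in 7 of the 9 genes, those of EA1 siRNA 2 in 6, and all 4 knockdown libraries in 5. Over all genes tested this held for 72.1%, 68.1% and 55.4%, so such a separation by itself is common here. The libraries of EA1 siRNA 1 did not overlap those of EA1 siRNA 2 in 4 of the 9 genes, against 46.9% of all genes.

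**Figure D1:**
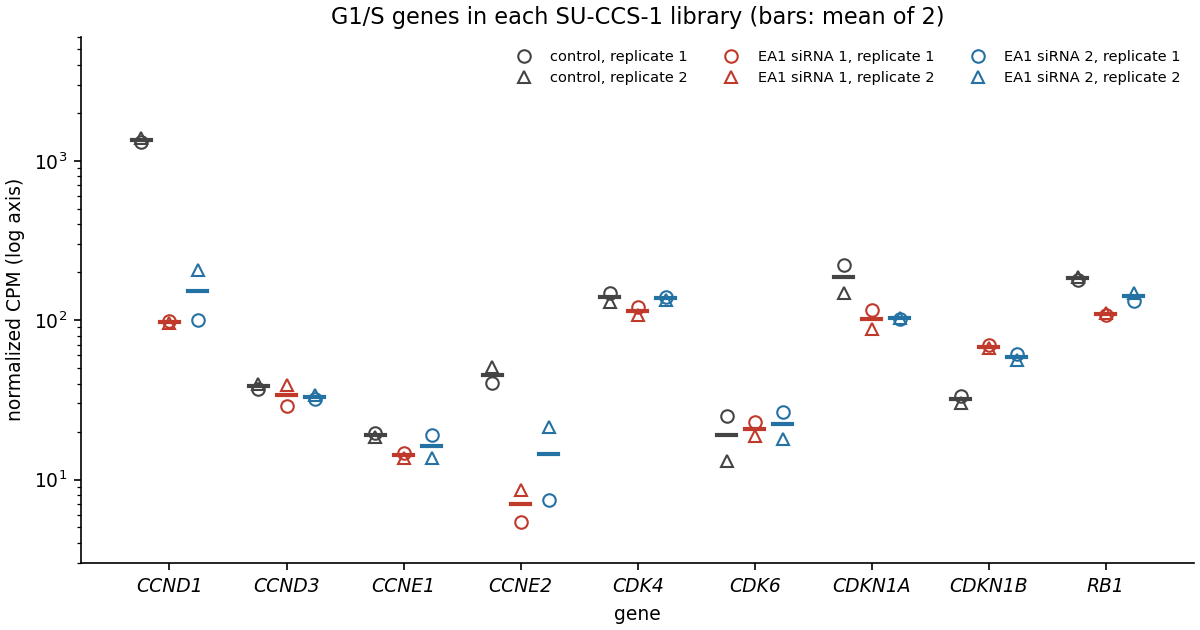
Normalized CPM of the 9 genes on a log axis, with circles for replicate 1, triangles for replicate 2 and a bar at the mean of the 2 libraries of each condition. CCND1 lies at 1305 and 1379 CPM in the control libraries and at or below 206 CPM in all 4 knockdown libraries, and CDKN1B is the gene whose 4 knockdown libraries all lie above control.

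CCND1, the gene of cyclin D1, lies on chromosome 11 from 69641156 to 69654474 on the plus strand of hg38. Its levels were 1305 and 1379 CPM in control, 98.3 and 96.3 CPM for EA1 siRNA 1 and 99.5 and 206 CPM for EA1 siRNA 2. The control libraries agreed closely, every knockdown library lay far below them, and replicate 2 of EA1 siRNA 2 kept more CCND1 RNA than the other 3 knockdown libraries. The means were 1342 ± 52.5, 97.3 ± 1.37 and 153 ± 75.2 CPM (SD, n = 2 each). CCND1 thus fell 13.8-fold with EA1 siRNA 1 (log2FC 3.79, standard error 0.26, adjusted p = 1.06e-06). With EA1 siRNA 2 it fell 8.75-fold (log2FC 3.13, standard error 0.25, adjusted p = 3.97e-06). That log2FC was 2.73 without replicate 1 of EA1 siRNA 2 and 3.79 without replicate 2. Raw counts of 8720 and 10729 in control and of 559 to 1466 after knockdown stood behind these values.

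The difference in CCND1 between the EA1 siRNAs was −0.66 on the log2 scale (95% interval −1.19 to −0.12, adjusted p = 0.196) and was not called. That value depended on the libraries of EA1 siRNA 2. Without its replicate 1 the difference was −1.08 with an adjusted p of 6.17e-05, without its replicate 2 it was −0.022, and over all alternatives the adjusted p ranged from 6.17e-05 to 0.958. At its end, 497 of the gene's exonic bases (10.4%) overlap LTO1 on the opposite strand. LTO1 held 669 counts over the 6 libraries, beside 22750 for CCND1, and was not called with either EA1 siRNA.

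CCND3, the gene of cyclin D3, on chromosome 6 from 41934934 to 42050357, gave a different picture. Its levels were 37.0 and 39.7 CPM in control, 28.9 and 39.4 CPM for EA1 siRNA 1 and 32.2 and 34.0 CPM for EA1 siRNA 2. The control range overlapped that of EA1 siRNA 1, and both libraries of EA1 siRNA 2 lay just below control. The log2FC of 0.17 had a 95% interval from −0.18 to 0.53 with EA1 siRNA 1 (adjusted p = 0.429), and that of 0.21 an interval from −0.15 to 0.57 with EA1 siRNA 2 (adjusted p = 0.344). Both intervals leave out a change of the size seen in CCND1.

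Levels of different genes were compared per kilobase of exon (CPM per kb), by the union of annotated exons. In control, CCND1 was the highest of the 9 genes at 282 ± 11.0 CPM per kb (SD, n = 2), and CCND3 stood at 6.66 ± 0.339. CCND1 made up 97.7% of the summed CCND1 and CCND3 level in control, against 77.6% for EA1 siRNA 1 and 83.4% for EA1 siRNA 2. In single libraries the ratio of CCND1 to CCND3 was 42.7 and 42.0 in control and between 2.96 and 7.33 after knockdown. CCND1 therefore remained the larger of the pair in all 6 libraries, also by the length of the longest transcript, where its share was 95.2%, 61.9% and 70.5%.

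The likeness of other genes to each D-type cyclin was measured as the root mean square difference of mean-centred log2 CPM over the 6 libraries. CDC6, which loads the replicative helicase at origins, was nearest to CCND1 at 0.19, followed by the long non-coding RNA LINC02747 at 0.193 and the receptor gene GPR83 at 0.224. LINC02747 stood at 35.6 and 35.1 CPM in control and between 1.81 and 3.51 CPM in the 4 knockdown libraries. It lies on the same chromosome as CCND1, from 69475567 to 69481545 on the minus strand, with 159610 bases between the genes. SLC35C1, RPL24 and CPSF4 were nearest to CCND3, at 0.0423, 0.0437 and 0.0513. These distances describe 6 libraries and carry no test.

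The E-type cyclins, which activate CDK2 late in G1, also differed from each other. CCNE2 fell with both EA1 siRNAs, and CCNE1 did not pass the test with either. CCNE2, the gene of cyclin E2, had 40.4 and 50.5 CPM in control, 5.40 and 8.56 CPM for EA1 siRNA 1 and 7.48 and 21.3 CPM for EA1 siRNA 2. All knockdown libraries lay below control, and the highest of them was again replicate 2 of EA1 siRNA 2. The fall was 6.57-fold with EA1 siRNA 1 (log2FC 2.72, standard error 0.38, adjusted p = 1.55e-04) and 3.08-fold with EA1 siRNA 2 (log2FC 1.63, standard error 0.34, adjusted p = 0.00311). The second log2FC was 1.11 without replicate 1 of EA1 siRNA 2 and 2.64 without replicate 2. DESeq2 run on the 4 libraries of control and EA1 siRNA 2 alone gave it an adjusted p of 0.0744, within a range of 1.11e-06 to 0.0744 over all alternatives.

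The difference in CCNE2 between the EA1 siRNAs, −1.09 on the log2 scale, was not called (95% interval −1.98 to −0.20, adjusted p = 0.198). With the replicate number as a block it was −1.02 and called (adjusted p = 0.0431). Without replicate 1 of EA1 siRNA 2 it was −1.63 with an adjusted p of 0.00109, in a range from 0.00109 to 0.911 over all alternatives. CCNE2 lies on chromosome 8 from 94879770 to 94896678 on the minus strand, and 1629 of its exonic bases (37.0%) overlap INTS8 on the opposite strand. Whether the counting used strand is not given in the sources used here, so reads of such pairs are uncertain. INTS8, a subunit gene of the Integrator complex, was between 64.9 and 80.9 CPM in all 6 libraries and was not called with either EA1 siRNA.

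CCNE1, the gene of cyclin E1, on chromosome 19 from 29811991 to 29824312, had 19.6 and 18.4 CPM in control, 14.6 and 13.7 CPM for EA1 siRNA 1 and 19.0 and 13.6 CPM for EA1 siRNA 2. Both libraries of EA1 siRNA 1 lay below control, whereas 1 library of EA1 siRNA 2 lay within the control range. The log2FC was 0.42 with EA1 siRNA 1 (95% interval −0.03 to 0.87, adjusted p = 0.128) and 0.23 with EA1 siRNA 2 (−0.22 to 0.67, adjusted p = 0.423). Per kb, CCNE2 made up 57.1% of the summed E-type cyclin level in control, against 21.5% for EA1 siRNA 1 and 32.4% for EA1 siRNA 2. CCNE2 was the higher of the pair in both control libraries and CCNE1 in all 4 knockdown libraries, although in replicate 2 of EA1 siRNA 2 the ratio of CCNE1 to CCNE2 was 1.14.

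**Figure D2:**
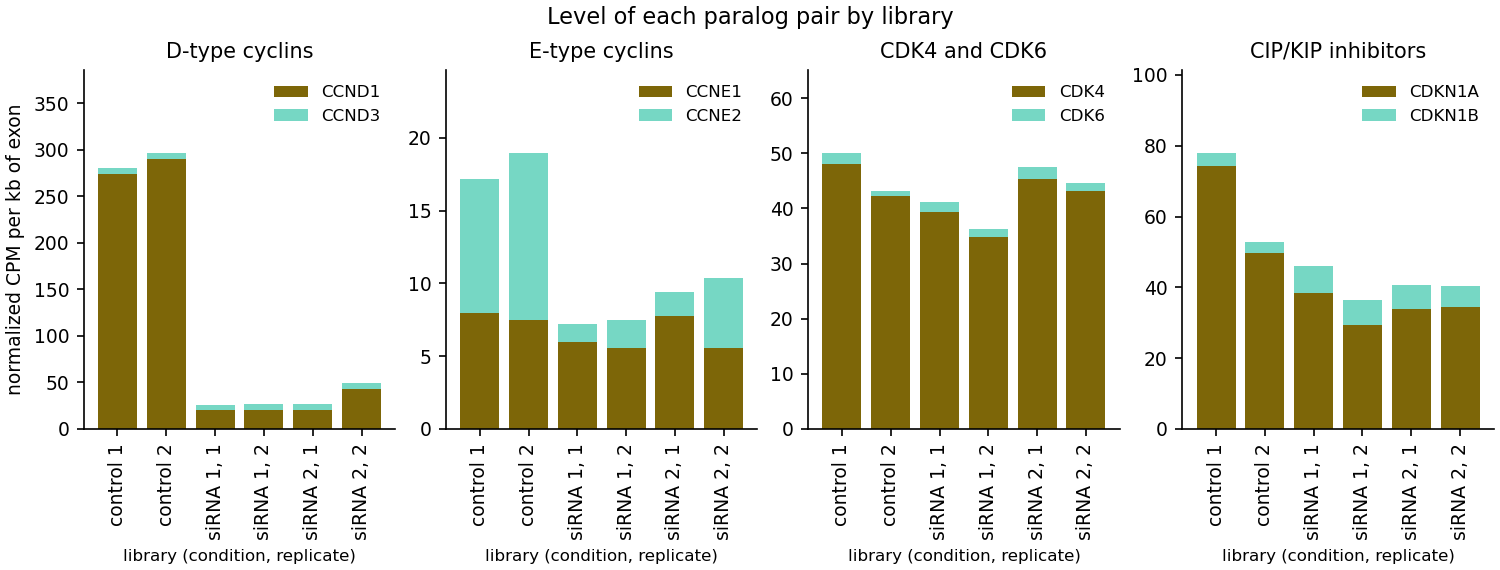
Stacked bars of normalized CPM per kb of exon for each pair of paralogs in the 6 libraries, on a separate linear axis from 0 for each pair. CCND1 fills most of the D-type bar in every library, the CCNE2 part of the E-type bar is larger in control than in any knockdown library, and CDK4 fills most of its bar throughout.

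Neither kinase partner of the D-type cyclins was called. CDK4, on chromosome 12 from 57747727 to 57756013, had 148 and 130.5 CPM in control, 122 and 108 CPM for EA1 siRNA 1 and 140.1 and 133 CPM for EA1 siRNA 2. Both libraries of EA1 siRNA 1 lay below control and those of EA1 siRNA 2 lay within it. With EA1 siRNA 1 the log2FC was 0.28 (95% interval 0.04 to 0.52, adjusted p = 0.0606), and with EA1 siRNA 2 it was 0.03 (−0.21 to 0.27, adjusted p = 0.865). The first stood at the edge of the threshold and was called with RLE size factors (adjusted p = 0.0475), with the replicate number as a block (adjusted p = 0.0263) and without control replicate 2 or either library of EA1 siRNA 2, in a range of 0.0254 to 0.354 over all alternatives.

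TSPAN31, a tetraspanin gene, shares 1369 bases with CDK4 on the opposite strand, which is 44.2% of CDK4's exonic bases. TSPAN31 rose from 19.2 and 14.5 CPM in control to between 24.01 and 34.7 CPM after knockdown (log2FC −0.99 and −0.79, adjusted p = 0.00249 and 0.0115). Its part in the CDK4 counts was not tested.

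CDK6, the gene of the other G1 kinase, on chromosome 7 from 92604921 to 92836573, had a wide spread in control. Its levels were 25.1 and 13.0 CPM in control, 22.9 and 18.8 CPM for EA1 siRNA 1 and 26.3 and 17.97 CPM for EA1 siRNA 2. The knockdown libraries lay within or just above the control range. The log2FC was −0.14 (95% interval −0.77 to 0.49, adjusted p = 0.731) and −0.22 (−0.85 to 0.41, adjusted p = 0.598), and the sign of both turned without control replicate 2, to 0.30 and 0.23. Per kb, CDK6 was the lowest of the 9 genes in control (1.56 ± 0.703, SD, n = 2), and CDK4 made up 96.7% of the summed CDK4 and CDK6 level in control, against 95.6% for EA1 siRNA 1 and 96.1% for EA1 siRNA 2.

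**Figure D3:**
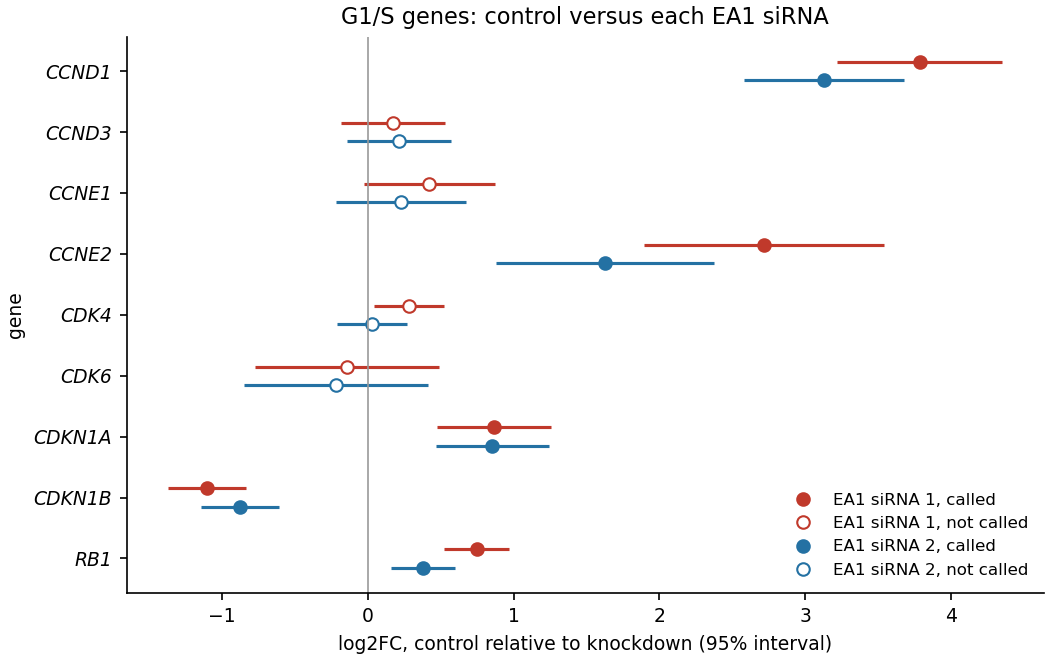
Fitted log2FC of control relative to each EA1 siRNA for the 9 genes, with 95% intervals, filled where the gene was called and open where it was not. CCND1 and CCNE2 lie farthest to the right, CDKN1B is the called gene on the left, and the points of CCND3, CCNE1, CDK4 and CDK6 are open.

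The 2 CIP/KIP inhibitor genes moved in opposite directions. CDKN1A, which encodes p21 and lies on chromosome 6 from 36676460 to 36687337, is also a well-known p53 target. Its levels were 223 and 148.5 CPM in control, 115 and 87.6 CPM for EA1 siRNA 1 and 102 and 103 CPM for EA1 siRNA 2. The control libraries differed from each other more than those of EA1 siRNA 2 did, and all 4 knockdown libraries lay below both. CDKN1A fell 1.82-fold with EA1 siRNA 1 (log2FC 0.87, standard error 0.18, adjusted p = 0.00228). With EA1 siRNA 2 it fell 1.81-fold (log2FC 0.85, standard error 0.18, adjusted p = 0.00289). Between the EA1 siRNAs the difference was −0.01 with a 95% interval from −0.41 to 0.38. Without control replicate 1, the log2FC dropped to 0.55 and 0.53, and the gene stayed called.

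CDKN1B, which encodes p27 and lies on chromosome 12 from 12685498 to 12722369, had 33.4 and 30.2 CPM in control, 69.5 and 67.0 CPM for EA1 siRNA 1 and 60.9 and 55.9 CPM for EA1 siRNA 2. Replicates lay close together in each condition, and no knockdown library came near control. The rise was 2.15-fold with EA1 siRNA 1 (log2FC −1.10, standard error 0.12, adjusted p = 2.75e-05) and 1.84-fold with EA1 siRNA 2 (log2FC −0.88, standard error 0.12, adjusted p = 2.01e-04). Both held under every alternative run. The difference between the EA1 siRNAs was 0.23 (95% interval −0.03 to 0.48, adjusted p = 0.356). In CPM per kb, the ratio of CDKN1A to CDKN1B was 20.6 and 15.2 in control and between 4.04 and 5.71 after knockdown, so CDKN1A was the higher of the pair in all libraries. By the longest transcript, which for CDKN1B is 4.33 kb against 9.26 kb of exons, the ratio was 12.8 and 9.40 in control and between 2.50 and 3.54 after knockdown.

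The promoters of both inhibitor genes are shown because they are the pair of paralogs that were called in opposite directions and because ATF1 binds cAMP response elements (CRE). The sequences are from RefSeq on GRCh38.p14, from which 10 promoter windows of 7 of the listed genes were read, from 250 bases before to 50 after the start site, and a shorter stretch of each is printed, 5′ to 3′. Both strands of the full windows were searched for the full CRE (TGACGTCA), its half-site (TGACG, part of the full CRE), the AP1 motif (TGAGTCA), TGANNTCA (which also holds the full CRE) and the E2F motifs TTTCCCGC, TTTCGCGC, TTTGCCGC and TTTGGCGC. Capitals mark a match, here the half-site read on the other strand. The first is chr6:36678464-36678738 and the second chr12:12717118-12717392, both on the plus strand.
CDKN1A: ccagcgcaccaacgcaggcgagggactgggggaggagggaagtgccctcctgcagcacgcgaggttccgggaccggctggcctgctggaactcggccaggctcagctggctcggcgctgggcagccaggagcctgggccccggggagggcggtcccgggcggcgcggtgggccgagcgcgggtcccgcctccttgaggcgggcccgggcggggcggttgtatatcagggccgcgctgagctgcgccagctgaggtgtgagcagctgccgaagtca
CDKN1B: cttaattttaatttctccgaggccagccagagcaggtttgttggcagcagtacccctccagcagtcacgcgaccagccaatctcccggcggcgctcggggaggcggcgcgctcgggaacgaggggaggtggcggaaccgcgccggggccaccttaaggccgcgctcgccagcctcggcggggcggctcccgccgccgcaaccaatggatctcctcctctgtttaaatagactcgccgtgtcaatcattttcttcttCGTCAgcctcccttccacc

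CDKN1B held 1 half-site, which began at base 7 after the start site, and the window of CDKN1A held none of these letters. The only other match in the 10 windows was a half-site in the second promoter of CDK6, 74 bases before its start. No window of CCND1 or CCNE2 was read, so neither was searched. On the plus strand, the RefSeq start used lay inside the annotated gene for CDKN1A, CDKN1B and RB1. The distances from its first base were 2254, 31870 and 172706 bases. CCND3, CDK4 and CDK6 are on the minus strand, where a gene begins at its highest position, and distances from it were not computed. The start used for CDK4 (57752310) lay inside the gene, which reaches 57756013. So did all starts used for CCND3 (at most 42048688, with the gene reaching 42050357). The second promoter of CDK6 started at 92833959, inside a gene reaching 92836573. Among all 35116 promoter windows of that length, 24.6% held the half-site, 1.85% the full CRE, 4.95% the AP1 motif, 11.5% TGANNTCA and 3.31% an E2F motif. A match describes letters in a window and not a bound site.

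RB1, which encodes the retinoblastoma protein, lies on chromosome 13 from 48303744 to 48599436. It had 179 and 187 CPM in control, 107 and 112 CPM for EA1 siRNA 1 and 133 and 149 CPM for EA1 siRNA 2. The 3 conditions did not overlap, with control highest and EA1 siRNA 1 lowest. The fall was 1.68-fold with EA1 siRNA 1 (log2FC 0.75, standard error 0.10, adjusted p = 1.42e-04) and 1.30-fold with EA1 siRNA 2 (log2FC 0.38, standard error 0.10, adjusted p = 0.0119). Without control replicate 2 the second had an adjusted p of 0.0625, within a range of 0.00287 to 0.0625 over all alternatives. The difference between the EA1 siRNAs, −0.37 (95% interval −0.59 to −0.14), was not called at an adjusted p of 0.0940. It was called with the replicate number as a block (−0.36, adjusted p = 0.0389) and without replicate 1 of EA1 siRNA 2 (adjusted p = 0.0362, in a range of 0.0362 to 0.407).

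Between the EA1 siRNAs, the same edgeR test called 0 of the 9 genes, where 2.24% of all genes tested were called, 0.796% higher and 1.44% lower with EA1 siRNA 1. CCND1, CCNE2, CDK4 and RB1 had unadjusted p-values of 0.0201, 0.0205, 0.0416 and 0.00422, each with the lower level in EA1 siRNA 1. The share of all genes with unadjusted p-values that low was not counted, so these values are not read as a trait of the 9 genes. DESeq2 over all 6 libraries called none. With the replicate number as a block, 2 of the 9 genes were called, CCNE2 and RB1, and 853 of all genes rather than 326.

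By mean level per kb of the union of exons, the order in control was CCND1, CDKN1A, CDK4, RB1, CCNE2, CCNE1, CCND3, CDKN1B and CDK6. No neighbours in that order overlapped between their 2 libraries. After knockdown CDK4 had the highest mean with both EA1 siRNAs (37.1 ± 3.17 and 44.2 ± 1.54 CPM per kb, SD, n = 2 each), and CCND1 held the third place (20.4 ± 0.287 and 32.1 ± 15.8). With EA1 siRNA 1, CDK4 overlapped CDKN1A, CCND3 overlapped CCNE1, and CDK6 overlapped CCNE2. With EA1 siRNA 2, CCND1 overlapped CDK4, CDKN1A and RB1, and in replicate 2 it stood at 43.2 CPM per kb beside 43.1 for CDK4. CCNE1 overlapped CDKN1B and CCND3 there, and CCNE2 overlapped CDK6. CCNE2 went from the fifth place in control to the last with EA1 siRNA 1, while CDKN1B went from the eighth to the fifth. These places hold for the union of exons. By the longest transcript, CCND3 lay above CCNE2 in control (15.4 and 16.6 against 12.1 and 15.2 CPM per kb). With EA1 siRNA 1, CCNE2 stood at 1.62 and 2.57 CPM per kb and CDK6 at 1.96 and 1.61. A full order by the longest transcript was not computed.

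Of 24 further genes of the G1/S machinery, 23 were tested. With EA1 siRNA 1, 9 were called higher and 3 lower in control, and with EA1 siRNA 2, 8 and 2. This is 52.2% and 43.5% of the genes tested, against the 40.1% and 36.7% of all genes given above, and the median log2FC was 0.39 and 0.21. CDC25A, the phosphatase that activates CDK2, fell from 64.4 and 84.3 CPM to 13.1 and 12.2 CPM with EA1 siRNA 1 and 22.1 and 31.2 CPM with EA1 siRNA 2 (log2FC 2.56 and 1.47). FBXW7, which marks cyclin E for degradation, fell from 87.9 and 84.5 CPM to between 34.9 and 51.4 CPM (log2FC 1.28 and 0.83). The inhibitor gene CDKN2D fell as well, from 10.8 and 6.69 CPM to between 3.65 and 4.45 CPM (log2FC 1.04 and 1.14).

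CCNA2, the gene of cyclin A2, fell from 106 and 113 CPM to 54.9 and 52.0, and to 67.6 and 89.8 (log2FC 1.03 and 0.47). The retinoblastoma relative RBL1 fell with log2FC values of 0.90 and 0.62, while RBL2 at −0.25 and −0.30 was not called. CKS1B and SKP2, which help to degrade p27, and CCNH, a subunit of the CDK-activating kinase, were also called higher in control with both EA1 siRNAs (log2FC between 0.37 and 0.85). CDK2, the kinase partner of cyclin E, went the other way, from 514 and 480 CPM in control to 1061 and 962 CPM with EA1 siRNA 1 and 1373 and 1095 CPM with EA1 siRNA 2 (log2FC −1.03 and −1.31, adjusted p = 7.28e-05 and 1.62e-05). AMBRA1, which takes part in the degradation of D-type cyclins, was called in the same direction at −0.41 and −0.44.

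CDK2 shares 89 exonic bases (2.29%) with the melanosome gene PMEL on the opposite strand. PMEL stood at 1397 and 1043 CPM in control and at 4241 to 7768 CPM after knockdown, and its part in the CDK2 counts was not tested. Of the INK4 and remaining CIP/KIP inhibitor genes, CDKN2C was called with EA1 siRNA 1 alone (log2FC 0.68, and 0.21 with EA1 siRNA 2), and CDKN1C was called in the opposite direction with EA1 siRNA 1 alone (−1.69, and −0.30), at no more than 6.54 CPM. The difference between the EA1 siRNAs was not called for either gene (adjusted p = 0.244 and 0.152). CDKN2A, at 1.42 to 3.29 CPM, and CDKN2B, at 5.09 to 9.06 CPM, were not called.

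Most genes known as E2F targets fell after knockdown. Of 24 listed, 23 were called with EA1 siRNA 1 (95.8%) and 21 with EA1 siRNA 2 (87.5%), all of them higher in control, where 20.3% and 18.2% of all genes were called in that direction. The median log2FC was 1.76 and 1.11. Their summed level was 2300 and 2514 CPM in control, 782 and 834 CPM for EA1 siRNA 1 and 968 and 1266 CPM for EA1 siRNA 2. Neither knockdown condition overlapped control, and the highest knockdown library was replicate 2 of EA1 siRNA 2, as it was for CCND1 and CCNE2.

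CDC6 fell from 138 and 149.9 CPM to 11.7 and 14.5 CPM with EA1 siRNA 1 and to 13.7 and 24.6 CPM with EA1 siRNA 2 (log2FC 3.46 and 2.88). ORC1, a subunit of the origin recognition complex, had log2FC values of 2.37 and 1.78. RRM2, which makes deoxyribonucleotides, had 2.22 and 1.39, and UHRF1, which maintains DNA methylation, had 2.06 and 1.70. E2F2 was the 1 gene of the list not called with EA1 siRNA 1 (log2FC 1.12, adjusted p = 0.0696). With EA1 siRNA 2, E2F2, E2F8 and POLA1 were not called (log2FC 0.83, 1.16 and 0.55). With the replicate number as a block, 24 and 22 of the list were called. Calls over all genes ranged from 4611 to 6484 and from 3609 to 5936 over the alternatives other than leaving a library out.

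Genes known as p53 targets, listed because CDKN1A is one of them, did not move in 1 direction. Of 22 tested, 8 were called higher and 4 lower in control for EA1 siRNA 1, against 6 and 5 for EA1 siRNA 2, which is 54.5% and 50% of the list, against 40.1% and 36.7% of all genes tested. For genes higher in control the share of all genes was 20.3% and 18.2%, and for genes lower in control 19.9% and 18.5%. The median log2FC was 0.34 and 0.07. With both EA1 siRNAs, 4 were called higher and 4 lower in control, and the share of all genes called alike with both was not counted. MDM2, the ubiquitin ligase that restrains p53, fell with CDKN1A, from 530 and 469 CPM to between 220 and 333 CPM (log2FC 0.94 and 0.63), and so did PLK3 (1.37 and 1.97) and FAS (1.08 and 1.42). BBC3, which encodes the pro-apoptotic protein PUMA, rose from 5.69 and 5.40 CPM to between 23.2 and 36.6 CPM (log2FC −2.71 and −2.26), and TP53INP1 rose as well (−1.52 and −1.03). The count for EA1 siRNA 2 fell from 11 to 7 with DESeq2 on the 4 libraries compared. Calls over all genes varied as well. With EA1 siRNA 2 they ranged from 3609 to 5936 over the alternatives other than leaving a library out, against 5352 in the main test.

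**Figure D4:**
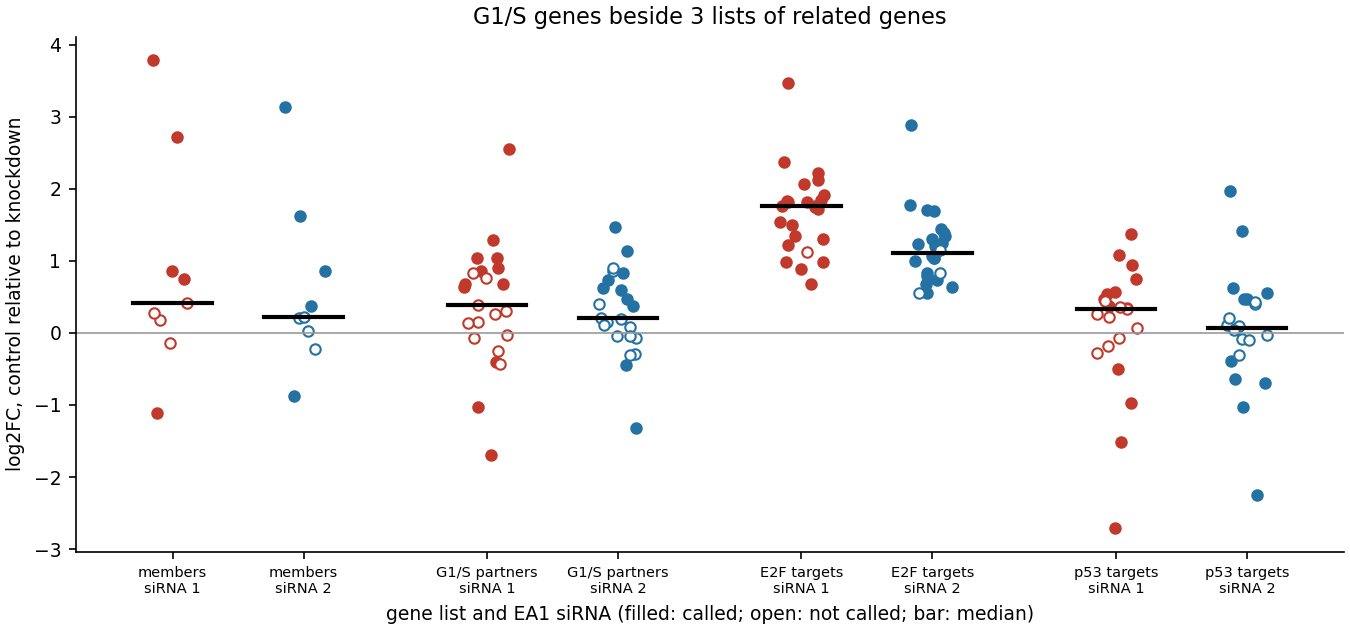
Fitted log2FC of control relative to EA1 siRNA 1 (red) and EA1 siRNA 2 (blue) for the 9 G1/S genes and for 3 lists of related genes, 1 point a gene, filled where called, with a bar at the median. Every E2F target lies above 0 with both EA1 siRNAs, with medians of 1.76 and 1.11, while G1/S partners and p53 targets lie on both sides of 0.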

How the data were processed

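RNA of 6 SU-CCS-1 libraries was analysed. The authors made stranded mRNA libraries, aligned reads to hg38 with BWA-MEM and counted them per gene with featureCounts (version 1.6.3), and the deposited values are raw counts per gene with no normalization. The annotation and strand setting of that counting are not given in the sources used here. Every group and replicate number came from the labels, and the listed genes and related gene lists were chosen with earlier results of these data known.

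The counts were filtered by filterByExpr (minimum count 10, minimum total 15), scaled by TMM and tested by the quasi-likelihood method over 3 conditions (edgeR 4.0.16, R 4.3.3). Contrasts were control against each EA1 siRNA, against their mean, and between EA1 siRNAs. Standard errors came from the F statistic. A prior count of 2 went into log2 CPM, and the common biological coefficient of variation came to 0.109. Exon lengths, coordinates and overlaps came from GENCODE on hg38. Named were all listed genes, ATF1 and EWSR1, from each list the 4 genes with the largest absolute mean log2FC among those called alike with both EA1 siRNAs, CDK2, CCNA2, CDC25A, CDKN1C, CDKN2A, CDKN2B, CDKN2C, RBL1, RBL2 and MDM2, and the 3 genes nearest to each D-type cyclin. Genes named beyond this rule, such as overlapping genes, markers, AMBRA1, SKP2, CKS1B, CCNH, E2F2, E2F8, POLA1 and those that differed between the EA1 siRNAs, were chosen after their values were seen. The comparison of CDKN1A with CDKN1B per kb was also added then. Alternatives were RLE size factors, other filters, a replicate block, DESeq2 1.42.0, each library left out and, for lengths, the longest transcript. Deviations of same-numbered replicates from their group means correlated at 0.13, 0.199 and 0.144 across genes, which are not independent. The labels name no shared batch, so a pairing by replicate number was taken from the data. The main test did not use this pairing, and the replicate block was run only as an alternative. On simulated counts of 14333 genes, 245 of 250 genes changed with EA1 siRNA 1 and 195 of 200 changed with EA1 siRNA 2 were recovered, with 3.54% and 6.25% of calls false. For the mean of both these were 247 of 250 and 5%, and between the EA1 siRNAs 50 of 50 and 3.85%. In that simulation few genes changed, by large steps and only among well-counted genes, with the same spread in every gene. Its rates therefore do not cover small changes, nor data such as these, where 40.1% of genes tested were called with EA1 siRNA 1.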

Additional observations from a re-analysis of the deposited data

Results flagged for a closer look

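The 6 related genes named here lie outside the 9 and differed between the EA1 siRNAs in a quasi-likelihood test (edgeR, Benjamini-Hochberg adjustment) of the difference itself. Of the E2F targets, MCM6 was lower with EA1 siRNA 1 by a log2 difference of −0.79 (adjusted p = 0.0424), MYBL2 by −0.88 (0.0103), RRM2 by −0.84 (0.0496) and TYMS by −0.58 (0.0141). Of the G1/S partners, CDC25A differed by −1.08 (adjusted p = 0.0248), and of the p53 targets TP53INP1 differed by 0.49 (0.0363). All 6 genes were called in the same direction against control with each EA1 siRNA, so that these differences are in size. Exonic bases of TYMS (39.9%) overlap ENOSF1 on the opposite strand. No condition had enough libraries for a search for single outlying libraries.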

How the results depend on the processing

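The 5 genes called with each EA1 siRNA kept their direction under all alternatives run, and their calls except for CCNE2 and RB1 with EA1 siRNA 2 as given above. Of the recomputed log2FC values of the 9 genes, 100 of 108 against EA1 siRNA 1, 103 of 108 against EA1 siRNA 2, 97 of 99 against their mean and 96 of 108 between the EA1 siRNAs kept direction and side of the threshold. With DESeq2 on the 4 libraries compared, 7 p53 targets were called with EA1 siRNA 2, and the cause of that lower count was not tested. Calls over all genes with EA1 siRNA 2 ranged from 3609 to 5936 over the alternatives other than leaving a library out. By the longest transcript, the CCND1 share was 95.2% under control siRNA, and 61.9% and 70.5% under EA1 siRNA 1 and 2, where the CDK4 share was 97.9%, 97.2% and 97.5%. For these shares only the length used differed, which for CCND3 was 2.39 kb in place of 5.76 kb.

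Blocked by replicate number, 853 genes rather than 326 were called between the EA1 siRNAs, 2 of them among the 9 genes. Beside these (CCNE2 and RB1) and CDK4 with EA1 siRNA 1, the block changed no call of the 9 genes. Among G1/S partners 13 and 10 were called with EA1 siRNA 1 and 2, and among p53 targets 14 and 13. Calls over all genes also reached up to 6484 and 5936 over the alternatives other than leaving a library out, against 5850 and 5352 in the main test. The higher list counts are therefore not read as a result about these lists.

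With each library left out, a lone library was assumed to vary like the others. Against EA1 siRNA 1, CCND3 ranged from −0.039 to 0.43 and CDK6 from −0.68 to 0.30. Against EA1 siRNA 2, CDK4 ranged from −0.069 to 0.15 and CDK6 from −0.76 to 0.23, and against the mean of both CDK6 ranged from −0.72 to 0.26. Between the EA1 siRNAs, CCND3 ranged from −0.19 to 0.25, CCNE1 from −0.42 to 0.054, CDK6 from −0.32 to 0.21 and CDKN1A from −0.23 to 0.17. Reversals in these 9 results concerned uncalled values. Called p53 targets ranged from 7 to 13 and from 7 to 11, both lowest without control replicate 1. Between the EA1 siRNAs, genes called ranged from 33 without EA1 siRNA 1 replicate 2 to 788 without EA1 siRNA 2 replicate 2, with 186 without control replicate 1, 206 without control replicate 2, 85 without EA1 siRNA 1 replicate 1 and 534 without EA1 siRNA 2 replicate 1, which called 3 of the 9 genes (0 to 3).

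With 2 libraries a condition, small changes such as that of CDK4 could not be settled.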
